A study of Mus musculus with 28 samples.

Results

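The placental prolactin, Psg and Ceacam genes were taken as every protein-coding mm10 gene whose symbol starts with Prl, Psg or Ceacam followed by a digit. There were 53 of them among 21755 protein-coding genes on chromosomes 1 to 19 and X, namely 25 Prl, 13 Psg and 15 Ceacam genes. The rule uses the symbol alone and no measured value, although it was set with earlier results of these data known. Pituitary prolactin (Prl) has no digit in its symbol and is described with the related genes.

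H3K9me2, the dimethyl mark that the EHMT1 and EHMT2 enzymes place on histone H3, was mapped by ULI-NChIP, a native chromatin immunoprecipitation made for few cells. The cells were a BL6/129 hybrid mouse embryonic stem cell line, EHMT2-dTAG-mcherry, in which a degron on EHMT2 lets the compound dTAG-13 remove the protein, and every group carried that tag. The MERVL-GFP reporter version of the line was kept 72 h in DMSO, the solvent control, or in dTAG-13, and sorted by GFP into mESC (negative) and 2CLC (positive, 2-cell-like cells), with 3 immunoprecipitation and 3 input libraries for each of the 4 conditions (mESC and 2CLC, each with DMSO and dTAG). A further 2 and 2 libraries came from unsorted mESC after 24 h in DMSO, making 28 in all. The labels state that TTNBP, an agonist of retinoic acid receptors, was given for 2 of the replicates without saying which, while the study's methods give it for the sorted cells with no such limit. By the study's methods, the sorted cells came from 3 independent experiments with 1 clone, so states and treatments are compared within that clone only.

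The values analysed were positions of H3K9me2 domains, broad regions of enrichment over input called on a grid of 5 kb bins. There was 1 list for each sorted condition and 1 list whose name gives neither state nor treatment, called the unnamed set below. The mESC lists held 4329 domains with DMSO and 7313 with dTAG, the 2CLC lists 4248 and 8822, and the unnamed set 6592. Values that follow each other without a set name are in this order of the 4 sorted sets, DMSO before dTAG and mESC before 2CLC. Each list stands for a whole condition, so replicate spread could not be computed and no difference between lists was tested. The read depth behind the domains is unknown, a domain says where the mark was called and not how much of it there was, and the labelled cell types could not be checked against expression of marker genes. Coordinates are those of mm10, counted from 1, and a gene counted as inside when a domain covered the first base of its transcription on its strand.

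The prolactin family of rodents grew by local duplication into a chromosome 13 array of hormones that trophoblast giant cells, spongiotrophoblast and decidua secrete, among them the placental lactogens, which bind the prolactin receptor, and the proliferins, which act on blood vessels. The pregnancy-specific glycoproteins (PSGs) are secreted immunoglobulin-like proteins that trophoblast releases into the maternal blood. The related CEACAMs include adhesion receptors of epithelia and leukocytes and, in rodents, several secreted members made by trophoblast. H3K9me2 covers broad stretches of silent chromatin, and gene clusters of specialised tissues often lie within them.

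Promoters of 44 of the 53 genes were matched by symbol in RefSeq sequence (GRCm38.p6, the mm10 assembly), each from 250 bases before to 50 after the RefSeq start. For 41 of them that start lay within 100 bases of the gene start used for domain placement. It lay 583 bases from it for Prl3b1, 193 for Psg20 and 147 for Ceacam2. No entry was matched for Prl2c2, Prl8a2, Prl7b1, Prl2c1, Psg16, Ceacam14, Psg22, Psg19 and Ceacam16. The proliferin copies Prl2c3 and Prl2c5 and the proliferin-related gene Prl7d1 are shown first, because their promoters are near copies of each other that differ in domain placement. Capitals mark the motifs TATAAA (the core of the TATA box), AGATAA (a motif of GATA factors) and TGANTCA (a motif of AP-1, here with any base as N), searched on both strands. Only these exact words were counted, anywhere in the window, and other forms such as TATATA were not. TGANTCA reads the same on both strands.
Prl2c3: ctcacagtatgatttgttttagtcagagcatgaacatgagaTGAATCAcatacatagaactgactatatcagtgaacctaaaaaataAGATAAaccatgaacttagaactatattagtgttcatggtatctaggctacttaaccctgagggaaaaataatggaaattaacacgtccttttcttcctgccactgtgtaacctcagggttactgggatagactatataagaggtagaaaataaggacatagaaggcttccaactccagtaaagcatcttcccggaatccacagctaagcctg
Prl2c5: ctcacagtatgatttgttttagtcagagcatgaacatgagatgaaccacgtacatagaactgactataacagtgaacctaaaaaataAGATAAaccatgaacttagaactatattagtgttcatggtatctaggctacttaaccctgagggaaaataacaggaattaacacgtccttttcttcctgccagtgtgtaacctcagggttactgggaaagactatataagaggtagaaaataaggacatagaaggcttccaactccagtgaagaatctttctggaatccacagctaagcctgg
Prl7d1: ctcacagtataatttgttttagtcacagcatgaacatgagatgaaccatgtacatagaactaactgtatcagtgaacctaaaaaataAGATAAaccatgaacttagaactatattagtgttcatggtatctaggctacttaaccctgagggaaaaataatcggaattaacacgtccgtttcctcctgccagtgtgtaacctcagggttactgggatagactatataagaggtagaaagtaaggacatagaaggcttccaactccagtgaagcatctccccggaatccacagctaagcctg
These lie at chr13:12800030-12800329 (minus strand), chr13:13182466-13182765 (plus strand) and chr13:27716687-27716986 (minus strand). Aligned end to end, the Prl2c3 promoter was 95.3% identical to that of Prl2c5 and 95.0% identical to that of Prl7d1. The AGATAA match started 163 bases before the start site in all 3, and Prl2c3 alone of these held a TGANTCA match, 209 bases before it.

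Of the placental lactogen I genes, Prl3d1 is the first member of the main Prl cluster and Prl3d2 is its neighbour, and both are shown as genes that lay inside a domain in every set.
Prl3d1: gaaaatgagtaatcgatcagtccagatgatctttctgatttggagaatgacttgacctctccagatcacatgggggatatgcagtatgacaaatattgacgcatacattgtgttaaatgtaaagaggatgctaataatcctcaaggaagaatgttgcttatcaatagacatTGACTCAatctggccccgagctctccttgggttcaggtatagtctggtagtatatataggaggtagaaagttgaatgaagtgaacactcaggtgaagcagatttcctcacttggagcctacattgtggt
Prl3d2: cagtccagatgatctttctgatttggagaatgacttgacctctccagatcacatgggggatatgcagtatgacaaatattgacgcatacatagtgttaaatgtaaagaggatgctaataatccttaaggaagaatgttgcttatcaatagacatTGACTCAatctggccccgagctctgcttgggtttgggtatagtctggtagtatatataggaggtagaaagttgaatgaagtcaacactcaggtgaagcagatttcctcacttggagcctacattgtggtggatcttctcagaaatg
They lie at chr13:27093939-27094238 (plus strand) and chr13:27121445-27121744 (plus strand). The promoters were 87.4% identical, and Prl3d2 and Prl3d3 were 97.0% identical. Each of the 3 placental lactogen I promoters held 1 TGANTCA match, starting 79 (Prl3d1), 96 (Prl3d2) and 100 (Prl3d3) bases before the start site.

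From the Psg and Ceacam side, Psg17, Ceacam19 and Ceacam20 are shown because their placement was not the same in every sorted set, and Psg18 as a Psg gene that was inside in all of them.
Psg17: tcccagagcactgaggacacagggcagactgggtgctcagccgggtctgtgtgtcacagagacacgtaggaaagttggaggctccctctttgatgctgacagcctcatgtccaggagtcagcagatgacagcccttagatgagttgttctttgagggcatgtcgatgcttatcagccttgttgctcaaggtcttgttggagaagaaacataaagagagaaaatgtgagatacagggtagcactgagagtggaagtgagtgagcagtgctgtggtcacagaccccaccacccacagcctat
Psg18: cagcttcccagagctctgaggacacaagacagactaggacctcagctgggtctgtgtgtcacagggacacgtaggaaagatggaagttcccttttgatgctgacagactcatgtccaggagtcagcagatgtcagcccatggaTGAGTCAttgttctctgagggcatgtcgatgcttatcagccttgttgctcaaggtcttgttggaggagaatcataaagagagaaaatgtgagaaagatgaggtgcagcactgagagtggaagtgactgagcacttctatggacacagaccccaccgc
Ceacam19: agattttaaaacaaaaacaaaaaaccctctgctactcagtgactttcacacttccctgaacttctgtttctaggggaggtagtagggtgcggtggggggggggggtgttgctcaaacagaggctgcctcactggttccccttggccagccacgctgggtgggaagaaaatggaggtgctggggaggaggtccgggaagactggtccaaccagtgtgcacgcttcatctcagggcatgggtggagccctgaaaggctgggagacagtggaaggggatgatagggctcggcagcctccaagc
Ceacam20: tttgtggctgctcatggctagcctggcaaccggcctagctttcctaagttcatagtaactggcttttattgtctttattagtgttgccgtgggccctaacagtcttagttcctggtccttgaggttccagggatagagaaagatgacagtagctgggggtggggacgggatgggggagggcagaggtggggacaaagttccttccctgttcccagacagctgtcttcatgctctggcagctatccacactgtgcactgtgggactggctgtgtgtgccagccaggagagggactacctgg
They lie at chr7:18821542-18821841 (minus strand), chr7:18354958-18355257 (minus strand), chr7:19887916-19888215 (minus strand) and chr7:19965162-19965461 (plus strand). Psg17 and Psg18 were 84.0% identical. Psg18 held 1 TGANTCA match, starting 107 bases before the start site, and Psg17, Ceacam19 and Ceacam20 held none of the 3 motifs within these windows.

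Over the 44 matched promoters, TGANTCA was found in 13 (29.5%) against 7.81% of all 32851 RefSeq mouse promoters of the same length, and AGATAA in 17 (38.6%) against 11.2%. TATAAA was found in 8 (18.2%) against 13.6%. In the main Prl cluster, 8 of 19 promoters held TGANTCA (42.1%) and 7 held AGATAA (36.8%). The families differed. TGANTCA was found in 9 of 21 Prl, 3 of 10 Psg and 1 of 13 Ceacam promoters. AGATAA was found in 9 of 21 Prl, 1 of 10 Psg and 7 of 13 Ceacam promoters. The Ceacam share for TGANTCA (7.69%) and the Psg share for AGATAA were thus not above those of all promoters. Each matched gene gave 1 promoter, while the 32851 were all entries listed. The median GC content was 44.8% for the members and 52.7% for all promoters, and the median number of CG dinucleotides was 2 against 7, so the shares are not matched for base composition. Several promoters that share a match are near copies and not independent counts. For TGANTCA these include Prl3d2 and Prl3d3 (97.0% identical) and Psg18 and Psg28 (96.7%), and for AGATAA Prl2c3 and Prl2c5 (95.3%). Matches of different motifs overlapped only in the Ceacam18 promoter, where a TATAAA and an AGATAA match share a base.

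Most starts of these genes lay inside H3K9me2 domains whatever the state or treatment. In mESC, 44 of 53 were inside with DMSO (83.0%) and 46 with dTAG (86.8%), and in 2CLC 45 were inside with either (84.9%). The corresponding shares over all protein-coding genes were 22.3%, 23.6%, 23.2% and 26.5%. The unnamed set held 46 of the 53, where 30% of all starts were inside. Members of a cluster share domains and are not independent of each other, so these counts describe a few regions more than 53 separate placements.

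By family, the Prl genes were inside in 23 of 25 cases in mESC DMSO and in 25 of 25 in each of the other sets. All 13 Psg genes were inside in mESC DMSO, 2CLC DMSO and the unnamed set, and 12 in each dTAG set. The Ceacam genes were divided, with 8 of 15 inside with DMSO and 9 with dTAG in mESC, 7 and 8 in 2CLC, and 8 in the unnamed set.

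**Figure D1:**
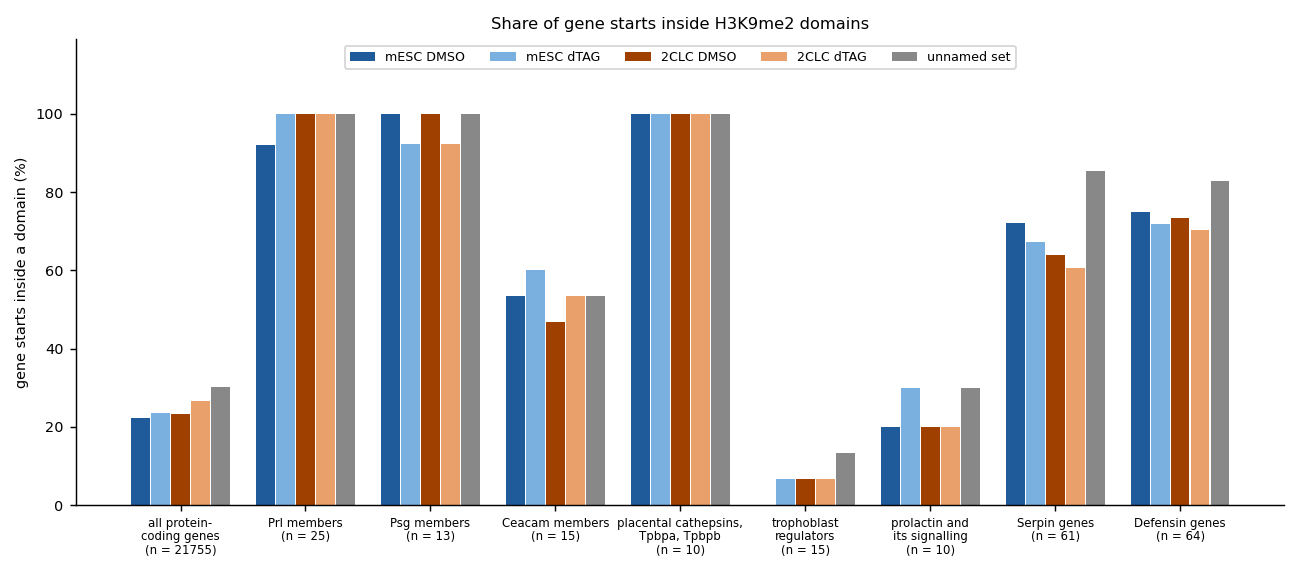
Bars give the percentage of gene starts inside an H3K9me2 domain in each of the 5 sets, for all 21755 protein-coding genes, the 3 member families and 5 lists set beside them. Prl and Psg genes stand at 92.0% or above in every set, Ceacam genes between 46.7% and 60.0%, and all protein-coding genes between 22.3% and 30%, and no error is drawn because each set is 1 list.

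Over the 4 sorted sets, 41 of the 53 starts (77.4%) were inside in every set, where 15.1% of all protein-coding starts were. 6 were outside in every set (11.3%, against 65.8%), and all 6 were Ceacam genes: Ceacam1, Ceacam9, Ceacam10, Ceacam15, Ceacam16 and Ceacam18. The remaining 6 were not placed alike (11.3%, against 19.1%): Prl2c2, Prl2c3, Psg16, Psg17, Ceacam19 and Ceacam20.

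With dTAG nearly all placements were those seen with DMSO. A domain is a relative call by percentiles, so a like placement does not mean a like amount of the mark. The study reports a global fall of H3K9me2 with EHMT2 depletion in both states. In mESC, Prl2c2, Prl2c3 and Ceacam19 were inside with dTAG and outside with DMSO (3 of 53, where 6.32% of all genes did so), and Psg17 did the opposite (1 of 53, against 5.08%). In 2CLC, Ceacam20 was inside with dTAG and outside with DMSO (1 of 53, against 7.52%), and Psg16 did the opposite (1 of 53, against 4.25%). No gene of the families switched with treatment in both states. The share of all genes that did so was not computed, so this does not set the families apart.

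Between the states, Prl2c2 and Prl2c3 were inside in 2CLC DMSO and outside in mESC DMSO (2 of 53, against 3.99% of all genes), and Ceacam20 did the opposite (1 of 53, against 3.10%). With dTAG, Psg17 was inside in 2CLC and outside in mESC (1 of 53, against 6.24%), and Psg16 and Ceacam19 did the opposite (2 of 53, against 3.32%). The comparisons share sets, so a single set that stands apart appears in more than 1 of them.

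**Figure D2:**
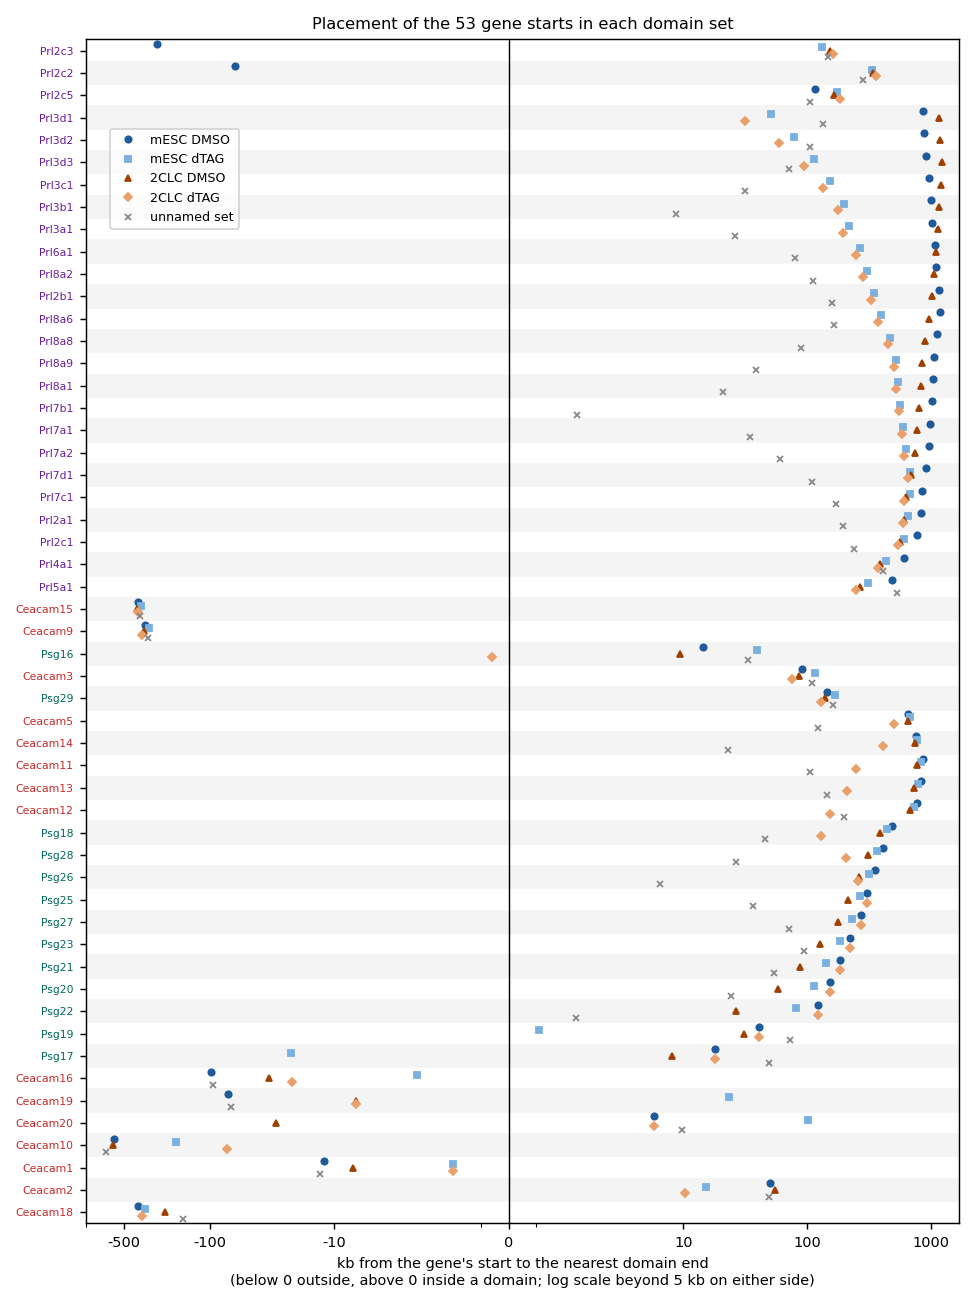
Each row is 1 of the 53 genes in chromosome order, Prl names in purple, Psg in green and Ceacam in red, and each symbol gives the distance in kb from the gene's start to the nearest domain end in 1 set, above 0 when inside. The axis is linear within 5 kb of 0 and logarithmic beyond. In the sorted sets, members of the main Prl cluster stand far inside, nearer to an end in the dTAG than in the DMSO sets at the cluster's left. In the unnamed set some of them stand close to an end, such as Prl7b1 (2.48 kb) and Prl3b1 (8.75 kb). The Ceacam genes at the bottom lie on both sides of 0.

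The members fell into 5 groups of neighbours, with successive genes at most 1 Mb apart, and Ceacam18 alone. The largest, the main Prl cluster (chr13:27094190-28151611, 22 genes), holds the placental lactogens, the prolactin-like proteins and no protein-coding gene of another family. All 22 genes and every base of the cluster were inside in all 4 sorted sets, in 1 domain per set. That domain was 2390 kb wide with DMSO and 1410 kb with dTAG in mESC, and 2470 and 1330 kb wide in 2CLC. The 2 dTAG domains were thus the narrower in both states, while the genes themselves remained covered from end to end.

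The narrowing was uneven. The domain began at 26237912 in mESC DMSO and 25937912 in 2CLC DMSO, but at 27042911 in mESC dTAG and 27062911 in 2CLC dTAG, which is 51 and 31 kb before the first base of Prl3d1. It ended at 28627908 (DMSO) and 28452908 (dTAG) in mESC, and at 28407908 and 28392908 in 2CLC. The left ends therefore ranged over 1125 kb and the right ends over 235 kb. A further mESC DMSO domain ran from 25937912 to 26232911, so the 2 DMSO left ends differ through a gap of 5 kb.

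The stretch of 1156 kb between the most distant left end and the cluster was not emptied with dTAG. Domains covered 99.6% of it in mESC DMSO and 100% in 2CLC DMSO, against 86.2% in mESC dTAG and 87.0% in 2CLC dTAG. The number of domains with bases in it was 2 and 1 in the DMSO sets, and 5 and 8 in the dTAG sets. Seen from the DMSO domains, that of mESC was overlapped by 5 mESC dTAG domains that covered 88.9% of it, and that of 2CLC by 8 2CLC dTAG domains that covered 93.3%. Among all mESC DMSO domains of at least 1 Mb, 80 of 319 (25.1%) were overlapped by a single mESC dTAG domain and the median number was 3. In 2CLC this held for 44 of 306 (14.4%), with a median of 4, so a wide domain met by several dTAG domains was usual in these lists.

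Distances followed the ends. The start of Prl3d1 (placental lactogen I) lay 856.3, 51.3, 1156 and 31.3 kb from the nearest domain end. Prl3d2 lay 883.8, 78.8, 1184 and 58.8 kb and Prl3d3 918.9, 113.9, 1219 and 93.9 kb from it in the same order. For these 3 genes at the left margin of the cluster, both dTAG distances were shorter than either DMSO distance.

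Prl3b1 (placental lactogen II, the lactogen of later pregnancy) lay 1004, 198.9, 1166 and 178.9 kb inside in that order. Prl8a2 (decidual prolactin-related protein, a product of the decidua) lay 1108, 302.8, 1062 and 282.8 kb inside. Prl6a1, a prolactin-like protein, lay 1075, 269.7, 1095 and 249.7 kb inside. These 3 genes were likewise deeper in both DMSO sets than in either dTAG set.

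Towards the right margin the sets drew together. Prl7d1 (proliferin-related protein, an inhibitor of vessel growth) lay 911.2, 673.8, 691.2 and 653.8 kb inside. Prl4a1, a prolactin-like protein that acts on uterine natural killer cells, lay 611.7, 436.7, 391.7 and 376.7 kb inside, and Prl5a1, the last gene, 485.4, 310.4, 265.4 and 250.4 kb. The mESC DMSO distance was the longest for all 3, and that of 2CLC DMSO lay between those of mESC dTAG and 2CLC dTAG for Prl4a1 and Prl5a1. Over all 22 genes the median depth was 973, 416, 869 and 376 kb.

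The unnamed set divided the main Prl cluster. 3 domains with 2 gaps between them covered 99.1% of the cluster, and none of the 22 starts fell in a gap. Because the domains were shorter, the median depth of the starts was 98.1 kb.

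The Prl2c cluster (chr13:12790816-13191923) holds Prl2c3, Prl2c2 and Prl2c5, genes of the proliferin type, apart from the main cluster on the same chromosome. It was the only group of Prl members whose placement differed between the sorted sets. Domains covered 30.9% of it in mESC DMSO and 100% in each of the other 4 sets. In mESC DMSO a domain of 260 kb held Prl2c5, while all 3 genes lay in a domain of 690 kb in mESC dTAG, of 700 and 730 kb in 2CLC with DMSO and dTAG, and of 635 kb in the unnamed set.

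Prl2c3 lay 267.9 kb outside the nearest domain in mESC DMSO, and 132.1, 152.1 and 162.1 kb inside in mESC dTAG and both 2CLC sets. Prl2c2, the gene of proliferin itself, lay 62.5 kb outside in mESC DMSO and 337.5, 342.5 and 362.5 kb inside in those sets. Of both genes no base was covered in mESC DMSO and every base in the other sets. Prl2c5 lay 114.8, 175.2, 165.2 and 185.2 kb inside. Being outside in mESC DMSO only was found for 1.55% of all protein-coding genes. The distances of Prl2c3 and Prl2c2 were far above 5 kb. A domain stops growing at a bin of low signal, so a long distance does not show how many bins the difference turns on.

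Prl2c2 and Prl2c3 are also the least distinct of the 53 genes in sequence. Of all 50-base words in the cluster, 48.1% occurred more than once on the chromosome on either strand, against 9.26% over chromosome 13 and 13.6% in the main Prl cluster. Within the gene bodies the share was 79.7% for Prl2c2, 77.4% for Prl2c3 and 37.0% for Prl2c5, and the median of the 22 genes of the main cluster was 3.01%. The uncovered part of the cluster in mESC DMSO held 50.4% repeated words and the covered part 42.8%. In the authors' alignment a read with several best matches was placed once, in random order, so reads of these copies may come from one another, and what this contributed to the difference was not tested.

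**Figure D3:**
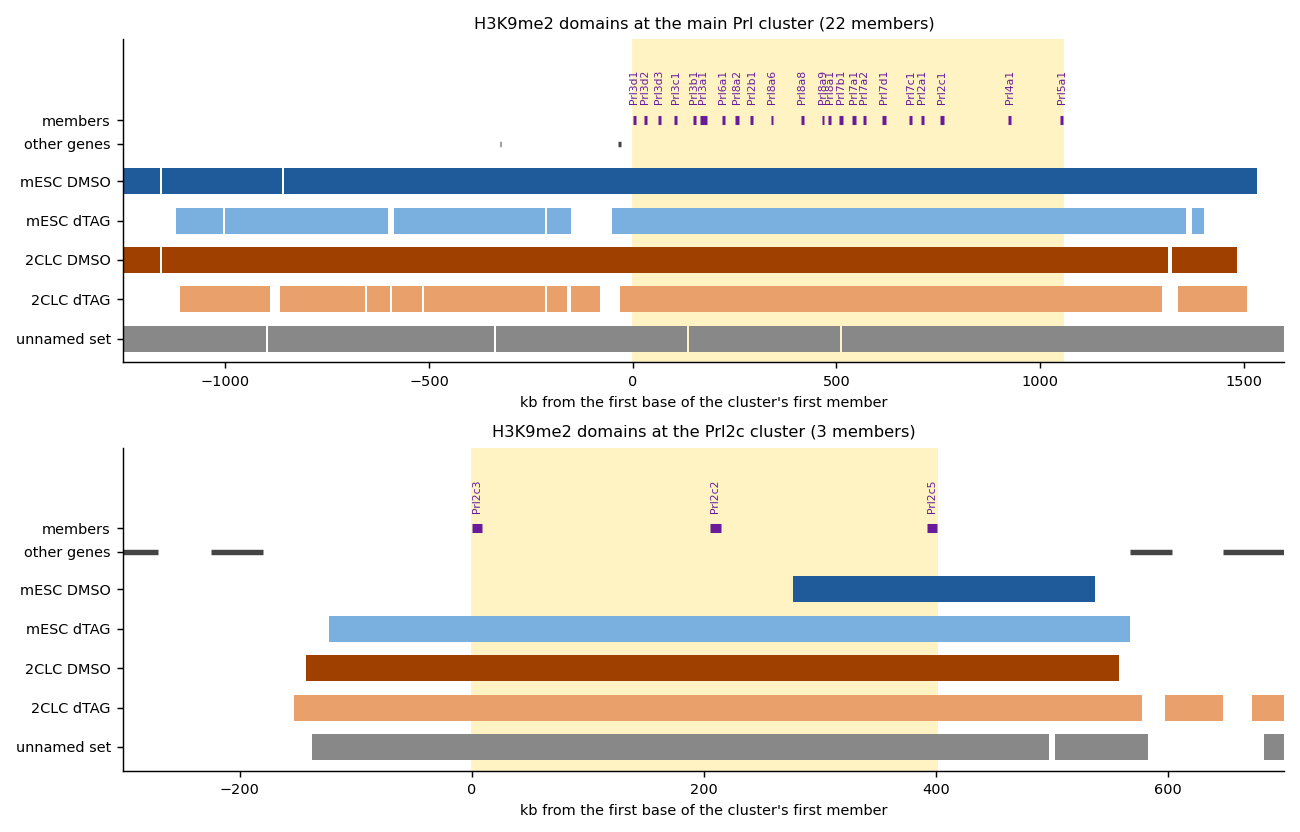
Bars show H3K9me2 domains in the 5 sets at the main Prl cluster (top) and the Prl2c cluster (bottom), by position in kb from the first base of each cluster, with cluster spans shaded, member genes in purple and, in dark grey, the 3 nearest protein-coding genes on each side where they fall within the panel. The main cluster is covered in every sorted set while the left flank is cut into 5 and 8 domains with dTAG, and the Prl2c cluster is covered in part in mESC DMSO and whole in the other sets.

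The genes next to the prolactin clusters show where the domains stopped. On the left of the main cluster, pituitary prolactin (chr13:27057570-27065205, with its start 37 kb before the cluster) was 819.7 and 14.7 kb inside in mESC with DMSO and dTAG, and in 2CLC 1119.7 kb inside with DMSO and 5.34 kb outside with dTAG. Hdgfl1 on its left and Gm11361 on the right of the cluster were inside in all 4 sorted sets. Sox4, a transcription factor gene that starts 802 kb to the right, was outside in all of them. Around the Prl2c cluster, the 3 genes on the left, Ero1lb, Edaradd and Lgals8, were outside in all 4, and on the right Gpr137b and Nid1 were inside in 2CLC dTAG only.

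The Psg-Ceacam cluster (chr7:16671331-18821607) holds all 13 Psg genes and 8 Ceacam genes, with 18 protein-coding genes of other families. In mESC, domains covered 81.9% of it with DMSO and 82.1% with dTAG, in 2CLC 81.5% and 81.0%, and in the unnamed set 80.7%. In mESC the covered part was a single domain, of 1780 kb with DMSO and 1765 kb with dTAG. In 2CLC a gap of 5 kb divided it, into 1680 and 80 kb with DMSO and into 1145 and 615 kb with dTAG. Overlap by a single dTAG domain, as in mESC, was found for 25.1% of mESC DMSO domains of at least 1 Mb.

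The left end of the domain was placed alike. It lay at 17059640 (DMSO) and 17034640 (dTAG) in mESC, at 17064640 and 17074640 in 2CLC, and at 17040631 in the unnamed set, a range of 40 kb. Left of it were Ceacam15 and Ceacam9, trophoblast-expressed CEACAM genes that were 358.9 to 388.9 kb (Ceacam15) and 312.7 to 352.7 kb (Ceacam9) outside in the sorted sets. Between these and Psg16 lie 15 genes of other families, of which 14, from Ap2s1 (a clathrin adaptor subunit) to Ppp5c (a protein phosphatase), were outside in every set. The fifteenth, Hif3a (a hypoxia-inducible factor), lies at the end itself and was 2.79 and 27.8 kb inside in mESC DMSO and dTAG, and 2.21 and 12.2 kb outside in 2CLC DMSO and dTAG.

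Sequence composition differed between the covered and the uncovered part of the cluster. GC content was 41.6% in the part of the cluster inside mESC DMSO domains and 49.6% outside, and soft-masked repeats made up 52.4% and 32.8%. Repeated 50-base words made up 29.4% inside and 3.45% outside. In the other sorted sets the GC content was 41.6 to 41.7% inside and 49.4 to 49.6% outside. The part of composition and of read placement in the position of the domain end was not tested.

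Inside the domain, Psg16, Ceacam3 and Psg29 lie at the left, Ceacam5, Ceacam14, Ceacam11, Ceacam13 and Ceacam12 in the middle, and the row of 11 genes from Psg18 to Psg17 at the right. 17 of the 21 genes of the cluster were inside in all 4 sorted sets. Psg29 lay 143.8, 168.8, 138.8 and 128.8 kb inside, and Psg18 484.6, 444.6, 389.6 and 130.4 kb. Psg23, whose product acts on macrophages, lay 223.1, 183.1, 128.1 and 223.1 kb inside, and Psg21, which neighbours it, 182.9, 142.9, 87.9 and 182.9 kb. Psg22 lay 121.5, 81.5, 26.5 and 121.5 kb and Psg19 41.1, 1.12, 31.1 and 41.1 kb inside. The start of Psg19 in mESC dTAG, 1.12 kb from the domain end, was the only start of a member inside and within 1 bin of an end in a sorted set.

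The 2 Psg genes that were not inside in every sorted set, Psg16 and Psg17, stood at domain ends and gaps. Psg16, a Psg gene known from brain, was 14.4 and 39.4 kb inside in the mESC sets and 9.40 kb in 2CLC DMSO, and 0.600 kb outside in 2CLC dTAG, with 99.0% of its gene body covered there. The distance is below the width of a bin. Being outside in 2CLC dTAG only was found for 0.938% of all genes. Psg17, whose product binds the tetraspanin CD9, was 18.0, 8.03 and 18.0 kb inside in mESC DMSO, 2CLC DMSO and 2CLC dTAG and 22.0 kb outside in mESC dTAG, where the domain ended between Psg19 and Psg17. Being outside in mESC dTAG only was found for 1.59% of all genes. Psg17 is the last gene of the cluster, and its neighbour Mill2 was outside in all 4 sorted sets, at 0.330 to 10.3 kb.

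Some non-members inside the domain were placed like the members. Gm5155, Igfl3 and Mill1, which lie between the members, were inside in all 4 sorted sets. Ceacam15 and Ceacam9 stood next to genes of other families that were outside too.

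**Figure D4:**
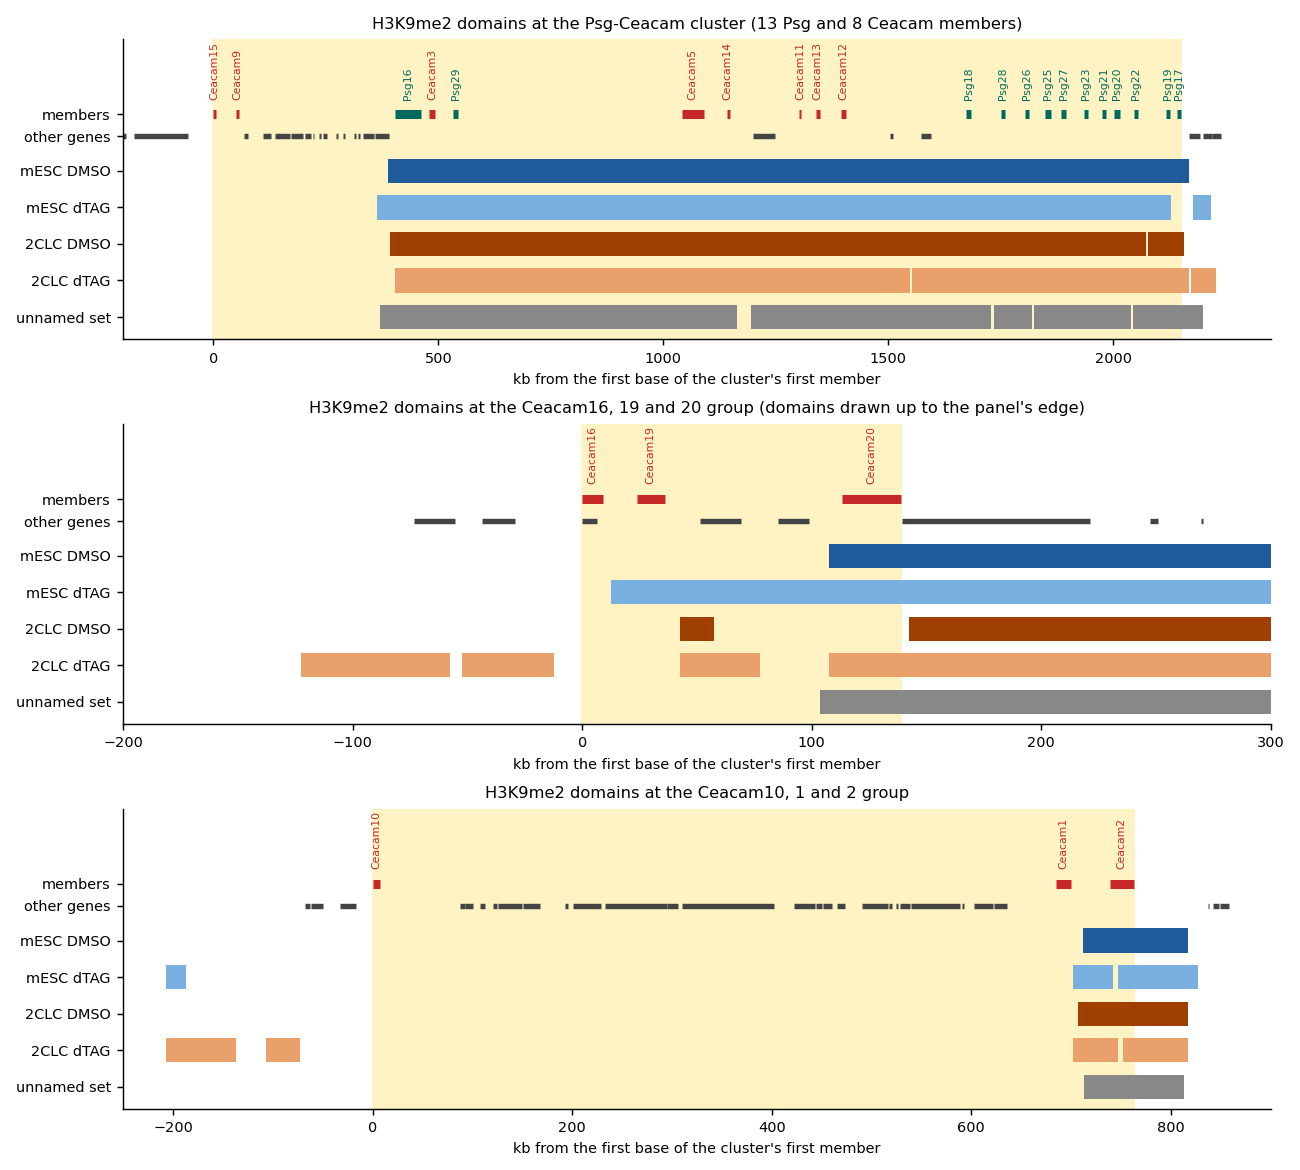
Bars show H3K9me2 domains in the 5 sets at the 3 chromosome 7 groups, by position in kb from the first base of each group, with spans shaded, Psg genes in green, Ceacam genes in red, and genes of other families inside and the 3 nearest on each side in dark grey. In the top panel the left domain end lies within a range of 40 kb in all sets, in the middle panel a wide domain on the right reaches Ceacam20 in 3 sorted sets and Ceacam19 in mESC dTAG only, and in the bottom panel a narrow domain covers Ceacam2.

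The Ceacam16, Ceacam19 and Ceacam20 group (chr7:19852097-19991104) stood at the left end of a domain that continues over vomeronasal receptor genes. In mESC, domains covered 22.6% of it with DMSO and 91.0% with dTAG, and in 2CLC 10.8% and 47.8%. When domains under 50 kb were left out, the 2CLC values fell to 0% and 22.6% and those of mESC stayed. Ceacam20, an intestinal brush border protein, was 5.78, 100.8 and 5.78 kb inside in mESC DMSO, mESC dTAG and 2CLC dTAG, in domains of 840, 4250 and 4155 kb, and 29.2 kb outside in 2CLC DMSO. Being outside in 2CLC DMSO only was found for 0.906% of all genes. Ceacam19 was 23.3 kb inside in mESC dTAG and 71.7, 6.67 and 6.67 kb outside in mESC DMSO, 2CLC DMSO and 2CLC dTAG, and being inside in mESC dTAG only was found for 1.68% of all genes. Ceacam16, a protein of the tectorial membrane of the inner ear, was outside in all 4, at 98.3, 3.34, 33.3 and 21.7 kb. In both states the share of the group that was covered was larger with dTAG than with DMSO, which does not measure the amount of the mark.

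The Ceacam10, Ceacam1 and Ceacam2 group (chr7:24777206-25539857) spans a long stretch outside domains. Domains covered 6.59% of it in mESC DMSO and 7.24% in each of the other sorted sets. When narrower domains than 50 kb were left out, the dTAG values were 2.00% in mESC and 1.34% in 2CLC. The neighbourhood of Ceacam1 and Ceacam2 alone, as formed with members at most 200 kb apart, was covered 64.3% in mESC DMSO and 70.7% in the other sorted sets. The 24 protein-coding genes of other families between Ceacam10 and Ceacam1 were outside in all 4. Ceacam2 was the exception, 50.2, 15.2, 54.8 and 10.2 kb inside domains of 105, 80, 110 and 65 kb. A gap of 5 kb within the gene lowered the covered share of its body to 79.0% in both dTAG sets, from 100% in the DMSO sets. Ceacam1, an adhesion receptor of epithelia and close relative of Ceacam2, was 12.0, 2.03, 7.03 and 2.03 kb outside the nearest domain, less than a bin away in both dTAG sets. Its gene body held 50.8% repeated 50-base words and that of Ceacam2 37.6%. Ceacam10 was 597.6, 187.6, 602.6 and 72.6 kb outside.

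Ceacam18 (chr7:43634707-43649295) lies apart from all other members. It was 385.1, 335.1, 230.1 and 355.1 kb outside the nearest domain. The 3 nearest genes on each side, Zfp658, Zfp719 and Zfp819 on the left and Siglece, Ctu1 and Klk14 on the right, were outside in all 4 as well.

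Over all groups, 4 of 36 nearest flanking genes were inside in all 4 sorted sets and 25 in none. Of all protein-coding genes, 15.1% and 65.8% were. Of the 44 genes of other families that lie between members, 3 were inside in all 4 and 38 in none. These 38 were the 24 between Ceacam10 and Ceacam1 and the 14 from Ap2s1 to Ppp5c, next to members that were outside too. Of the members the same counts were 41 and 6 of 53. The counts therefore do not separate membership from position.

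Other genes of placenta and of prolactin action were placed as follows. The 8 placental cathepsins (Cts3, Cts6, Cts7, Cts8, Ctsj, Ctsm, Ctsq, Ctsr), proteases of the rodent placenta, and the spongiotrophoblast markers Tpbpa and Tpbpb, which lie on chromosome 13 too, were inside in all 5 sets, 10 of 10, where 15.1% of all protein-coding genes were inside in the 4 sorted ones. They are neighbours in 1 domain of 925, 975 and 955 kb in mESC DMSO, mESC dTAG and 2CLC DMSO and in 2 domains of 390 and 560 kb in 2CLC dTAG, so they describe 1 locus. Tpbpa was 94.1, 119.1, 119.1 and 99.1 kb inside. Of 15 transcription factors and other regulators of trophoblast, 14 were outside in all 4 sorted sets (93.3%, against 65.8% of all protein-coding genes), among them Cdx2, Eomes, Gata3, Ascl2, Hand1 and Gcm1. Peg10, an imprinted gene needed for placenta formation, was 19.1 kb outside in mESC DMSO and 30.9, 5.90 and 64.1 kb inside in mESC dTAG and both 2CLC sets.

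Of 10 genes of prolactin and its signalling, 7 were outside in all 4 sorted sets (70.0%, near the 65.8% of all genes), including Jak2, Stat5a and Stat5b, the kinase and transcription factors downstream of the receptor. The prolactin receptor gene Prlr was 131.5, 31.5, 136.5 and 23.5 kb inside. Growth hormone (Gh), the relative of prolactin on chromosome 11, was 582.2 and 587.2 kb outside in mESC DMSO and 2CLC DMSO and 7.17 and 2.83 kb inside in mESC dTAG and 2CLC dTAG. The distances inside are below the width of 2 bins.

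2 other clustered families give a scale for the member shares. Of 61 Serpin genes (protease inhibitors), 44, 41, 39 and 37 were inside. Of 64 defensin genes (antimicrobial peptides), 48, 46, 47 and 45 were inside. In all 4 sorted sets 49.2% of the Serpin and 68.8% of the defensin genes were inside, against 77.4% of the members. By family these were 92.0% of the Prl, 84.6% of the Psg and 46.7% of the Ceacam genes. In the unnamed set the lists were closer, with 85.2% of the Serpin, 82.8% of the defensin and 86.8% of the member genes inside. On chromosomes 7 and 13, which carry all members, 25.6% and 14.9% of the protein-coding genes were.

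Among the members inside a domain, the median depth in mESC was 776.1 kb with DMSO and 306.6 kb with dTAG, and in 2CLC 627.1 and 247.5 kb. All protein-coding genes inside a domain had medians of 104.9, 55.6, 115.9 and 43.6 kb. The main Prl cluster supplied 22 of the members inside a domain in each set, and other groups differed from it. The Psg genes inside a domain, 13 with DMSO and 12 with dTAG in each state, had medians of 182.9 and 176.0 kb in mESC and of 128.1 and 168.2 kb in 2CLC. Their median was thus greater with dTAG in 2CLC, but single genes went both ways there. With DMSO and dTAG, Psg18 lay 389.6 and 130.4 kb inside and Psg23 128.1 and 223.1 kb. The gap of 5 kb in the 2CLC domains lay after 18744637 with DMSO and after 18219637 with dTAG. These depths therefore depend on where a single short gap fell. The Prl2c genes inside had medians of 114.8 and 175.2 kb in mESC (1 and 3 genes) and of 165.2 and 185.2 kb in 2CLC, again greater with dTAG.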

How the data were processed

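H3K9me2 was measured by ULI-NChIP in 28 libraries. Per the study's methods the authors trimmed and aligned the reads, placed reads with several best matches once in random order, removed duplicates and regions of artificially high signal, scaled coverage to genome content without chromosomes X and M, averaged it in overlapping windows every 5 kb and took the log2 ratio to input. Domains grew from bins above a high percentile to a bin below a low one. The submitters' processing notes name mm10, STAR 2.7.10, Picard 2.26.0, SAMtools 1.14, bedtools 2.30.0, deepTools 3.5.1 and R 4.1.2. Whether replicates were pooled or percentiles set for each list was not stated, and the percentiles make a domain a relative call. The deposited lists hold chromosome, start and end, with a score of 0 throughout, and no values of single samples (0 further columns were left aside).

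Genes were those of GENCODE vM21 on mm10. Starts were placed in domains, clusters formed at gaps of at most 1 Mb, and sequences read from GRCm38.p6, with Python 3.11.15, numpy 2.4.6, Biopython 1.88 and matplotlib 3.10.9. Placement and repeat counts were checked on simulated data. No test was run, because each condition is 1 list. Named with values were all genes not placed alike, the first and last gene of each cluster, Ceacam18 and a list of genes by role. The members and lists were chosen with earlier results of these data known. Protein sequences were not used here. The alternatives were a minimum domain width of 50 kb, domains longer or shorter by 1 bin a side, at least 50% of the gene body covered, pseudogenes included, each cluster left out, and cluster gaps of 200 kb or 3 Mb.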

Additional observations from a re-analysis of the deposited data

How the results depend on the processing

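Of 293 combinations of a result and an alternative, 252 stayed within the limit set for their kind. All 55 shares of member starts inside domains stayed within the 95% binomial interval of the main result. That interval is wide for 53 genes and treats them as independent. Without the main Prl cluster the shares were 71.0%, 77.4%, 74.2% and 74.2%, and 77.4% in the unnamed set. Of 88 counts, 16 moved by over 1.5 times. Of 150 covered shares, 25 moved beyond a 95% binomial interval over 5 kb bins. These intervals are yardsticks and no replicate error. Including pseudogenes added no gene. Its 5 shares and 8 counts therefore could not move, and they are among those that stayed. With domains extended by 1 bin a side, 5 members were inside with dTAG only in mESC and 2 in 2CLC, none (0) was inside with DMSO only in 2CLC, and the unnamed set covered 100% of the main Prl cluster. With domains shortened by 1 bin, 2 members were inside with DMSO only in mESC, 2 in 2CLC dTAG and not mESC dTAG, and 2CLC DMSO covered 3.60% of the Ceacam16, Ceacam19 and Ceacam20 group. With at least 50% of the gene body covered, 0 members were inside with DMSO only in 2CLC and 1 in mESC dTAG and not 2CLC dTAG, as Psg16 then counted as inside. Without the Psg-Ceacam cluster, 0 members were inside with DMSO only in mESC or in 2CLC, 0 in 2CLC dTAG and not mESC dTAG, and 1 in mESC dTAG and not 2CLC dTAG. Without the Ceacam16, Ceacam19 and Ceacam20 group, 0 were inside with dTAG only in 2CLC, 0 in mESC DMSO and not 2CLC DMSO, and 1 in mESC dTAG and not 2CLC dTAG. Without the Prl2c cluster, 1 was inside with dTAG only in mESC and 0 in 2CLC DMSO and not mESC DMSO. With domains of at least 50 kb, the Ceacam16, Ceacam19 and Ceacam20 group was covered 0% in 2CLC DMSO and 22.6% in 2CLC dTAG, and the Ceacam10, Ceacam1 and Ceacam2 group 2.00% in mESC dTAG and 1.34% in 2CLC dTAG. With members at most 200 kb apart, the largest part of the Psg-Ceacam cluster was covered 100% with DMSO and 95.4% with dTAG in mESC, 99.0% and 100% in 2CLC and 96.9% in the unnamed set, and the Ceacam1 and Ceacam2 neighbourhood, in the same order, 64.3%, 70.7%, 70.7%, 70.7% and 63.0%. With members at most 3 Mb apart, the Psg-Ceacam cluster and the Ceacam16, Ceacam19 and Ceacam20 group merged and were covered 54.6%, 58.2%, 53.5%, 60.7% and 54.8%. Each alternative changes the value through its own construction. Libraries could not be left out, as each list stands for a whole condition. No paired analysis was possible because the lists carry no replicates and no result comes from a test. Unknown depth, the 5 kb bins and the overlapping windows, by which neighbouring bins share signal, limit placement near domain ends. Among such placements are Ceacam20 (5.78 kb inside in mESC DMSO and 2CLC dTAG) and Ceacam19 (6.67 kb outside in both 2CLC sets). Psg17 (8.03 kb inside in 2CLC DMSO) is another.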
